A study of Mus musculus with 288 samples.

Results

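Gene expression in mouse kidney was followed on 24 arrays, sampled at steps of 2 h between CT18 and CT64 (CT, circadian time). They were taken by the source label kidney from 288 arrays of 12 mouse tissues. Circadian time gives the hour since the lights would have come on: CT0 to CT12 is the subjective day and CT12 to CT24 the subjective night, when mice are active, and fitted peak times are given on this 24 h scale. All mice were of the C57/BL6 strain, and the labels name no treatment. They were kept for 1 week in cycles of 12 h light and 12 h dark and then held in constant darkness while organs were collected, and each array carries RNA pooled from 3 mice. No time point has a replicate, so the error of every value below is the scatter of the 24 pools around a fitted curve, and p-values measure that scatter, which joins biological and technical spread. Sex and age are not given in the sources used here.

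The kidney is a mixture of cell types arranged along the nephron. Filtrate from the glomerulus passes the proximal tubule, which recovers most solutes and makes glucose and ammonia, then the loop of Henle, the distal convoluted tubule and the collecting duct, where sodium, potassium, acid and water are adjusted under aldosterone and vasopressin. A molecular clock runs in kidney cells as in most others. ARNTL and CLOCK switch on genes that carry E-boxes, among them the Per and Cry genes whose proteins block ARNTL and CLOCK, and the REV-ERB proteins encoded by Nr1d1 and Nr1d2 repress Arntl in turn. Urine volume, glomerular filtration and sodium and potassium excretion are known to follow a daily course.

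A 24 h wave (a cosine and a sine of 24 h, fitted to log2 intensity with limma) passed a Benjamini-Hochberg adjusted p of 0.05 in 5147 of 19938 genes, which is 25.8% of those tested. The waves were mostly shallow. The median peak-to-trough fold of the called genes was 1.16, against 1.08 for all genes; 1453 called genes exceeded 1.2-fold, 175 exceeded 1.5-fold and 33 exceeded 2-fold. Among the 9969 genes brighter than the median gene 4180 were called (41.9%), and among the 9969 dimmer genes 967 (9.7%). Fitted separately, the first 24 h and the second 24 h gave peaks within 4 h of each other for 5080 called genes (98.7%). Over all genes, the called ones included, the share was 63.9%. Genes were called from both days together, so the agreement of called genes is partly set by the call itself.

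Peak times fell into a large group at the end of the subjective night and a smaller one in the second part of the subjective day. The 2 h bin from CT20 to CT22 held 929 called genes (18% of them) and CT22 to CT24 another 731 (14.2%), whereas CT8 to CT10 held 577 (11.2%) and CT10 to CT12 held 516. The emptiest bins were CT14 to CT16 with 201 genes and CT2 to CT4 with 202. Above 1.5-fold the late night group was again the fullest, with 27 genes in CT20 to CT22 and 30 in CT22 to CT24, against 10 in CT8 to CT10 and 19 in CT10 to CT12. The median standard error of a called gene's peak was 0.88 h.

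**Figure D1:**
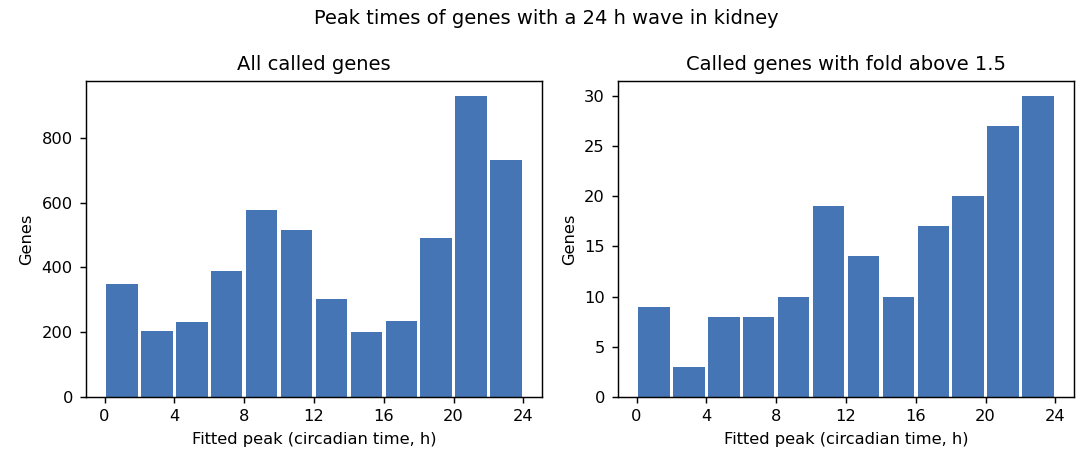
Number of kidney genes by fitted peak time in bins of 2 h of circadian time, for all 5147 genes with a called 24 h wave and for the 175 of them above 1.5-fold peak to trough. Both distributions are fullest between CT20 and CT24, and that of all called genes, on the left, has its second mode at CT8 to CT12.

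The kidney label was borne out by 12 tubule markers, whose mean log2 intensity stayed between 12.19 and 12.28 on all 24 arrays and was the highest of the 12 tissues. Array medians of intensity ranged from 97.5 to 105.2, each array's median correlation with the other kidney arrays was 0.9959 to 0.9972, and no pair held identical values. The array of CT54 stood apart by pancreas markers, with a mean log2 intensity of 7.05 over 13 genes against at most 6.17 on the others. Liver markers were highest at CT26 (8.81) and gut markers at CT36 (7.21). The 7 adipocyte markers had a mean log2 intensity of 6.97 (CT50) to 8.11 (CT40), well under the 12.06 of brown adipose tissue, and 5 of the 7 had a called wave: Adipoq and Retn, 2 fat-cell hormones, Cidec and Plin1 of the lipid droplet, and Lep, while Lpl and Ucp1 did not pass. Their mean had a fitted peak at CT16.1 with a 1.59-fold range, so a wave near that hour moves with them, and counts of many gene groups below are also given with this mean as a covariate; its part in the results was not tested further. The 7 markers also had slopes above 0 over the 2 days (median 0.175 log2 units per 24 h), none of them called. In whole-organ RNA, fewer cells of a type and less RNA per cell cannot be told apart.

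Of 13 measured core clock genes 12 had a called 24 h wave (92.3%, beside 25.8% of all genes), with a median fold of 2.36, and of 12 clock output genes 11 did (91.7%), with a median fold of 1.77. The activator Arntl ran from a log2 intensity of 5.67 at CT36 through a median of 7.47 to 8.96 at CT48. Its 6 highest arrays were those of CT20 to CT24 and CT44 to CT48 and its 6 lowest those of CT32 to CT36 and CT56 to CT60. The wave was 9.54-fold (95% interval 8.01 to 11.4) with a peak at CT21.8 ± 0.145 h (SE; limma adjusted p = 5.78e-16). Its partner Clock moved with it, 1.46-fold with a peak at CT21.4, from a far higher and narrower range of log2 intensity, 9.34 to 10.07.

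The repressors of the loop followed in order through the subjective day and night. Nr1d1, which encodes REV-ERB alpha, ranged from a log2 intensity of 7.54 (CT18) through 9.45 to 10.91 (CT54) and was 9.45-fold (7.78 to 11.5) with a peak at CT6.73; Nr1d2 was 3.33-fold with a peak at CT9.16. Per3 was 3.75-fold (CT10.6), Per1 2.36-fold (CT10.7), Cry2 1.79-fold (CT13.1) and Per2 4.06-fold (3.48 to 4.75; CT13.5 ± 0.208 h), with Per2 running from 6.95 at CT26 through 8.34 to 9.31 at CT38. Cry1 came last, 2.28-fold (2.03 to 2.56) with a peak at CT17.0 ± 0.261 h and log2 intensities from 6.25 (CT28) through 7.1 to 7.74 (CT42). The Per genes peaked around the change from day to night, while the highest Cry1 arrays lay at CT38 to CT44, CT18 and CT64, in the early and middle subjective night.

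Outputs that carry the clock to other genes covered the same range of hours. Dbp, a PAR bZIP activator that binds D-boxes, had the largest fold of all genes tested, 12.1 (9.72 to 15.1), with a peak at CT9.59 ± 0.164 h (limma adjusted p = 4.35e-15). Its log2 intensity went from 6.62 at CT24 through 8.58 to 10.37 at CT34. Its relatives Tef (2.14-fold, CT10.2) and Hlf (1.45-fold, CT12.9) were shallower, and Nfil3, which represses the same D-box genes, was opposite in time at 3.45-fold (2.7 to 4.43) and CT20.4. Ciart, a repressor of CLOCK and ARNTL, was 6.78-fold (CT9.66), Bhlhe41 1.72-fold (CT10.1) and Bhlhe40 1.59-fold (CT13.6). Wee1, a kinase that holds cells before mitosis, was 2.18-fold (CT12.8), the ubiquitin protease Usp2 1.73-fold (CT11.7), Tspan4 1.8-fold (CT12.1), Leo1 1.6-fold (CT21.7) and Nampt, the NAD-making enzyme, 1.29-fold (CT14.3).

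Rora, an activator of Arntl, and Fmo2, a monooxygenase, did not pass (1.07-fold, adjusted p = 0.238, and 1.08-fold, adjusted p = 0.0596). Fmo2 had a called wave in each of the other 11 tissues, with a fold of 1.87 in their mean, and the kidney wave differed from that mean (limma adjusted p = 2.34e-08). Klf9, a transcription factor that answers to glucocorticoids, was the weakest called clock gene (1.16-fold, CT6.43, adjusted p = 0.0359) and lost its call without the CT54 array (adjusted p = 0.0924). It was the only 1 of the 23 called clock genes to lose its call when any 1 array was left out, and none of the 23 did with the adipocyte mean as a covariate.

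**Figure D2:**
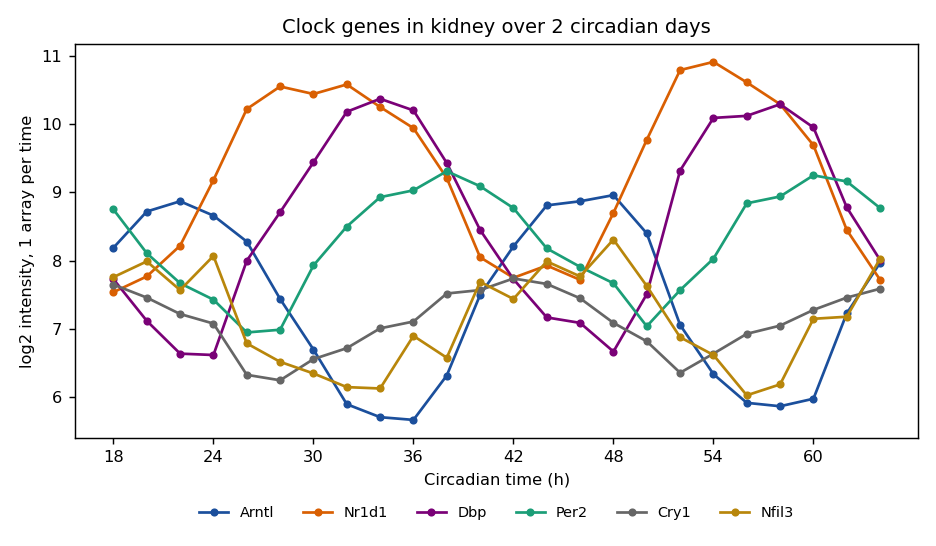
Log2 intensity of Arntl, Nr1d1, Dbp, Per2, Cry1 and Nfil3 on each of the 24 kidney arrays against circadian time in h, 1 pooled array per point and no error bars. Each gene passes through 2 highs and 2 lows about 24 h apart; Arntl is highest at CT48 (8.96) and Dbp at CT34 (10.37).

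E-boxes were searched in the 250 bases before each RefSeq gene start, and those of 5 clock genes are shown because E-boxes are the sites of ARNTL and CLOCK. The sequences are RefSeq, assembly GRCm38.p6, 5′ to 3′ on the gene's strand, with the match in capitals and 15 bases on either side.
Per1 (chr11:69098768-69098803, plus strand): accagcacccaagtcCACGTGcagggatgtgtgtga
Cry1 (chr10:85185094-85185129, minus strand): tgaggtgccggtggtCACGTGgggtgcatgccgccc
Bhlhe41 (chr6:145865553-145865588, minus strand): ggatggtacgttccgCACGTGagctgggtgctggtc
Ciart (chr3:95882324-95882359, minus strand): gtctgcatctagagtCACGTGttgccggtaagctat
Tspan4 (chr7:141476314-141476349, plus strand): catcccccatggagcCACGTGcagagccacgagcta
The motif CACGTG, the same on both strands, stood in 4 of the 11 core clock genes with a promoter in the table (36.4%) and 2 of the 11 output genes (18.2%). Over all 15614 measured genes with a promoter it stood in 1266 (8.11%), and over the 4132 called genes among them in 437 (10.6%). Ciart carried 3 matches, of which the farthest from the start is shown; Tef, the other output gene with a match, is not shown. Of these 6 genes Ciart, Bhlhe41, Tef, Per1 and Tspan4 peaked between CT9.66 and CT12.1, and Cry1 at CT17.0. The D-box, TTATGTAA or TTACGTAA on either strand, stood in 164 genes (1.05%) and the cAMP response element TGACGTCA in 364 (2.33%). Matches of E-box and cAMP response element shared bases in 2 genes, none of them printed here. A match is a description of the letters, not of binding.

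Outside the clock lists, 9 of the 20 largest waves peaked between CT20 and CT24. Nat8f5, an N-acetyltransferase gene (chr6:85817218-85820972), ran from a log2 intensity of 9.22 at CT52 through 10.36 to 11.37 at CT38 and was 3.26-fold (2.82 to 3.77; CT14.4 ± 0.229 h). Slc16a1 (chr3:104638664-104658462), the monocarboxylate transporter MCT1 that carries lactate and ketone bodies, ran from 8.12 at CT58 through 9.34 to 10 at CT24 and was 3.25-fold (2.92 to 3.61; CT22.1 ± 0.169 h, limma adjusted p = 5.49e-15). The arrays of CT20 to CT24 and CT44 to CT48 were its 6 highest and those of CT32 to CT36 and CT56 to CT60 its 6 lowest, the same arrays as for Arntl. Ppard (chr17:28232754-28301469), a fatty acid receptor that turns on lipid oxidation, ran from 8.61 at CT34 through 9.05 to 10.15 at CT48 and was 2.68-fold (2.33 to 3.08; CT22.9). Gene positions here and below are those of RefSeq GRCm38.p6.

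The others with a peak in these hours were Ypel2 (2.83-fold, CT21.1), the integrin gene Itga6 (2.18-fold, CT20.7), the Notch regulator Dtx4 (2.09-fold, CT22.8), Nt5e, the ectoenzyme that makes adenosine (2.09-fold, CT21.0), the bile acid transporter gene Slc10a2 (1.95-fold, CT21.7), Rhobtb1 (2.23-fold, CT20.0) and the vasopressin V1a receptor Avpr1a (2.24-fold, 2.01 to 2.49; CT22.2). Lonrf3 (2.38-fold, CT18.6) and the endoplasmic reticulum genes Sdf2l1 (2.81-fold, CT19.3) and Creld2 (2.27-fold, CT17.7) peaked a few hours before. Ddc, which makes dopamine in the proximal tubule, a signal for sodium excretion, was 2.0-fold (1.84 to 2.16) with a peak at CT0.486, and the fatty acid binding protein gene Fabp7 2.03-fold at CT2.07. Upp2, uridine phosphorylase, was 2.56-fold with a peak at CT8.88, and Slc6a19 1.95-fold at CT7.02, so these 2 were high in the subjective day. Retn (2.21-fold), Adipoq (2.12-fold) and Cidec (2.07-fold), with peaks at CT15.3 to CT16.6, are fat-cell genes and belong to the adipocyte markers given above. With the mean of those markers as covariate Adipoq and Retn were no longer called. That mean contains these genes, so the loss is partly built in and tells nothing further about them.

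Of 135 measured genes that mark nephron segments or other kidney cell types, 70 had a called wave (51.9%, beside 25.8% of all genes and 41.9% of genes above the median gene), with a median fold of 1.11. Leaving out 1 array at a time ended 9 of these 70 calls (Aqp1, Clic3, Col1a1, Egf, Gata2, Lrp2, Pdgfrb, Pvalb and Trpv5), and the adipocyte mean as covariate ended 18.

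In the proximal convoluted tubule 11 of 16 genes were called. Slc6a19 (chr13:73679745-73700780), the apical transporter of neutral amino acids, had the deepest wave, from a log2 intensity of 10.33 at CT18 through 10.85 to 11.5 at CT54, 1.95-fold (1.74 to 2.18; CT7.02 ± 0.313 h, limma adjusted p = 1.93e-09). Its 6 lowest arrays all lay between CT40 and CT46 or at CT18 and CT64, in the subjective night. Slc9a3 (chr13:74086255-74169442), the sodium-proton exchanger NHE3 through which most filtered sodium and bicarbonate is recovered, ran from 10.34 at CT20 through 10.51 to 10.85 at CT32, 1.35-fold (1.28 to 1.42; CT7.94). Pck1, the gluconeogenic enzyme that also takes up the carbon left by ammonia production, ran from 11.76 at CT26 through 12.15 to 12.54 at CT60, 1.49-fold (1.35 to 1.63; CT14.1).

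The other called genes of this segment were shallower. The basolateral glucose transporter gene Slc2a2 was 1.25-fold (CT6.48), the amino acid transporter genes Slc7a8 1.27-fold (CT22.9) and Slc7a7 1.18-fold (CT7.84), the creatine pathway enzyme gene Gatm 1.21-fold (CT23.3), the lactate transporter gene Slc5a12 1.16-fold (CT5.21), the organic anion transporter genes Slc22a8 1.1-fold (CT12.6) and Slc22a6 1.08-fold (CT8.72), and the endocytic receptor gene Lrp2 1.04-fold. The glucose transporter gene Slc5a2, the phosphate transporter genes Slc34a1 and Slc34a3, the bicarbonate transporter gene Slc4a4 and Cubn did not pass, with folds of 1.01 to 1.09. Of the 16, 10 were called with the adipocyte mean as covariate. In the straight part 2 of 11 genes were called (18.2%), Slc6a18 at 1.15-fold and Acy3 at 1.05-fold, against 1 with median centring of the arrays. Slc7a12, with log2 intensities from 7.29 (CT58) to 9.31 (CT46), had a fitted fold of 1.62 and an adjusted p of 0.0867.

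In the loop of Henle 4 of 7 thin limb genes and 7 of 13 thick ascending limb genes were called. Ptger3, the prostaglandin E2 receptor EP3 that lowers salt and water recovery, was the deepest of the thick limb, from a log2 intensity of 8.63 at CT32 through 9.11 to 9.5 at CT20, 1.5-fold (1.41 to 1.61; CT19.8, limma adjusted p = 1.22e-09). Cldn16, a tight junction protein for calcium and magnesium, was 1.21-fold (CT13.1), Cldn10 1.19-fold (CT23.9), Enox1 1.19-fold (CT15.8), the potassium channel gene Kcnj1 1.14-fold (CT21.8), Ppp1r1b 1.13-fold (CT14.4) and Egf 1.05-fold. The segment's defining genes were flat by comparison, Slc12a1 at 1.03-fold and Umod at 1.02-fold, neither called. In the thin limb the urea transporter gene Slc14a2 was 1.34-fold (CT21.1), Epha7 1.24-fold (CT1.3), Fst 1.22-fold (CT8.61) and the water channel gene Aqp1 1.07-fold. With the adipocyte mean as covariate 5 of the 13 thick limb and 3 of the 7 thin limb genes were called.

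In the distal convoluted tubule 8 of 14 genes were called, all with peaks from CT12.6 to CT21.2 and a circular mean peak at CT17.4. Sgk1 (chr10:21882184-21999903), the kinase by which aldosterone and glucocorticoids hold sodium channels at the membrane, ran from a log2 intensity of 8.21 at CT54 through 8.92 to 9.41 at CT62 and was 1.59-fold (1.38 to 1.82; CT15.3 ± 0.556 h, limma adjusted p = 3.34e-05). The magnesium channel gene Trpm6 was 1.27-fold (CT18.7), and the kinases that activate the sodium-chloride cotransporter were called at low folds, Stk39 1.19 (CT19.9), Wnk4 1.12 (CT12.6) and Wnk1 1.1 (CT15.1). Pvalb was 1.17-fold (CT21.2), and Kcnj10 and Cnnm2 were both 1.14-fold (CT17.9). The cotransporter's own gene, Slc12a3, was 1.04-fold and not called, nor were Klhl3, Cul3, Trpm7, Kcnj16 and Fxyd2. With quantile normalization of the arrays 13 of the 14 genes were called, Slc12a3 being the exception (limma adjusted p = 0.0842). With the adipocyte mean as covariate 5 of the 14 were called, and Wnk1, Kcnj10 and Cnnm2 were not among them. In the connecting tubule 5 of 7 genes were called, led by the sodium-calcium exchanger gene Slc8a1 (9.62 at CT32 through 10.11 to 10.32 at CT42, 1.46-fold, CT20.6), with Calb1 1.21-fold (CT20.5), Atp2b1 1.15-fold (CT21.5), Trpv5 1.14-fold (CT15.4) and S100g 1.15-fold (CT10.3), and 4 of the 7 were called with that covariate.

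In the collecting duct 9 of 15 principal cell genes and 6 of 14 intercalated cell genes were called. Npnt (chr3:132881745-132950291), an integrin ligand of the basement membrane, ran from a log2 intensity of 10.03 at CT34 through 10.49 to 10.89 at CT48, 1.63-fold (1.53 to 1.73; CT22.0 ± 0.229 h, limma adjusted p = 4.69e-12). The vasopressin V2 receptor gene Avpr2 (chrX:73891765-73894428), which sets water permeability, ran from 8.45 at CT32 through 8.88 to 9.35 at CT48, 1.42-fold (1.25 to 1.62; CT20.2, limma adjusted p = 0.000387). Its highest arrays lay at CT18 and CT40 to CT48, in the subjective night and at its end.

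The water channels that act with this receptor peaked at other hours. Aqp2, the apical channel that vasopressin inserts, ran from 9.4 at CT28 through 9.62 to 9.97 at CT40, 1.19-fold (1.09 to 1.3; CT14.3, limma adjusted p = 0.00772), and Aqp3, on the basolateral side, from 9.32 at CT20 through 9.55 to 9.79 at CT58, 1.26-fold (1.2 to 1.33; CT9.55). Of the 3 subunits of the epithelial sodium channel, Scnn1a was 1.27-fold (CT16.7) and Scnn1b 1.16-fold (CT11.2), while Scnn1g did not pass, nor did the mineralocorticoid receptor gene Nr3c2. Hsd11b2, which shields that receptor from glucocorticoids, was 1.13-fold (CT17.2), Fxyd4 1.17-fold (CT3.3) and Gata2 1.11-fold. Among intercalated cell genes the ammonia channel gene Rhcg was 1.21-fold (CT13.3), Aqp6 1.22-fold (CT14.7), and the proton pump subunits Atp6v1g3 1.2-fold (CT20.8), Atp6v1b1 1.17-fold (CT12.0) and Atp6v0d2 1.11-fold (CT23.2), with Slc4a9 1.12-fold (CT8.98). With the adipocyte mean as covariate 6 of the 15 principal cell genes were called, without Hsd11b2, Fxyd4 and Gata2, and Aqp2 was near the threshold (adjusted p = 0.0456); 5 of the 14 intercalated cell genes were called.

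Outside the tubule, endothelial genes were called most often, 9 of 12, with a circular mean peak at CT20.1. Tek, the angiopoietin receptor, was 1.36-fold (1.3 to 1.41; CT18.9 ± 0.244 h, limma adjusted p = 1.59e-11), Eng 1.27-fold (CT19.5), the VEGF receptor genes Flt1 1.26-fold (CT18.3) and Kdr 1.2-fold, Pecam1 1.18-fold and the glomerular endothelial gene Ehd3 1.3-fold. Egfl7 was opposite, 1.21-fold with a peak at CT5.89. Of the 12, 7 were called with the adipocyte mean as covariate, without Ehd3 and Sox17. Of 8 podocyte genes 3 were called, none above 1.18-fold, and of 6 urothelium genes none was; the mesangial integrin gene Itga8 was 1.56-fold (CT4.57), and 4 of 8 fibroblast genes were called, Dcn the deepest at 1.29-fold.

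**Figure D3:**
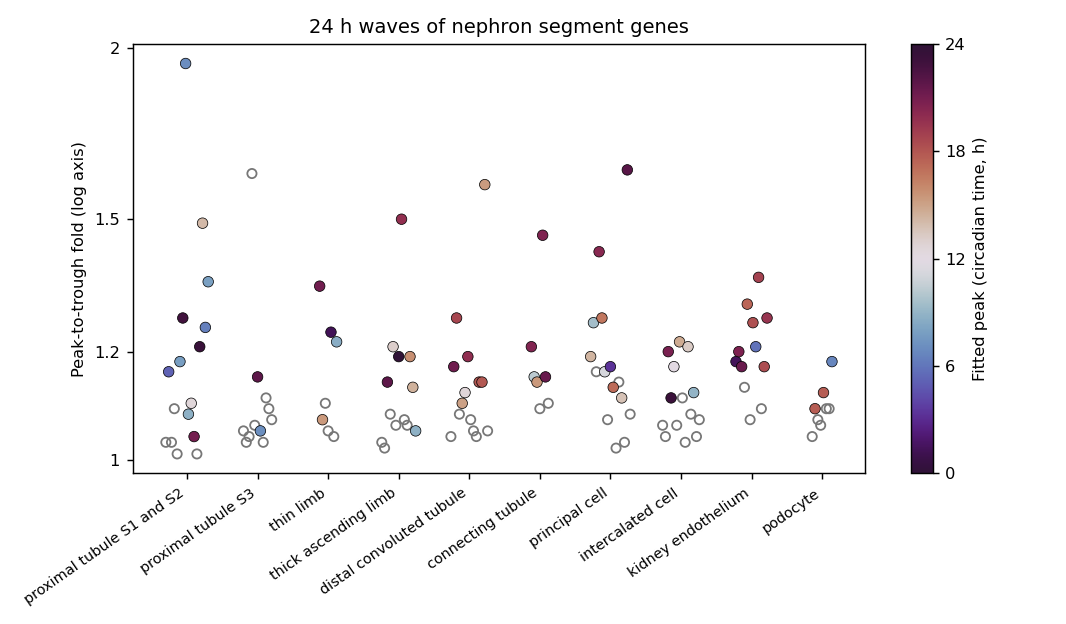
Peak-to-trough fold (log axis) of the fitted 24 h wave of each nephron segment or cell type gene in kidney, 1 dot per gene, filled where the wave was called and coloured by peak time, open where it was not. Most dots lie under 1.3-fold; Slc6a19 of the proximal tubule is the highest called dot at 1.95.

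Of 591 measured genes in 35 function lists 310 were called (52.5%, beside 25.8% of all genes and 41.9% of genes above the median gene), with a median fold of 1.11 against 1.08 for all genes. The protein folding groups stood out in depth. Of 25 endoplasmic reticulum chaperone and unfolded protein response genes 21 were called (84.0%), with a median fold of 1.29 and a circular mean peak at CT18.7. Hspa5, the chaperone BiP, ran from a log2 intensity of 11.17 at CT54 through 11.79 to 12.13 at CT18, 1.84-fold (1.64 to 2.07; CT19.0 ± 0.351 h, limma adjusted p = 1.71e-08), and Hsp90b1, its HSP90 partner, from 11.28 at CT36 through 11.69 to 12.01 at CT18, 1.58-fold (1.48 to 1.69; CT20.7). The 6 lowest arrays of both lay in the subjective day or at its end, and the 6 highest in the subjective night or at its end. Hyou1 was 1.83-fold (CT19.1), the disulfide isomerase gene Pdia6 1.59-fold, Dnajb11 1.57-fold, Dnajc3 1.35-fold and Calr 1.29-fold. Atf4, Atf6, Ern1 and Dnajc10 did not pass; Atf4 and Atf6 are transcription factors of the response, and Ern1 is one of its sensors. The wave of 14 of the 25 differed from the mean of the other 11 tissues, as did 5.03% of all genes; Hspa5 was 1.18-fold in that mean. With the adipocyte mean as covariate 16 of the 25 were called.

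The ER stress element, CCAAT and CCACG with 9 bases of any kind between them, on either strand, was searched in the same 250 bases, and the promoters that hold it are shown because the group moved together. For Hspa5 the whole 250 bases are given, for the others the match with 15 bases on either side; capitals mark the match, and a match that starts with CGTGG lies on the other strand.
Hspa5 (chr2:34771840-34772089, plus strand): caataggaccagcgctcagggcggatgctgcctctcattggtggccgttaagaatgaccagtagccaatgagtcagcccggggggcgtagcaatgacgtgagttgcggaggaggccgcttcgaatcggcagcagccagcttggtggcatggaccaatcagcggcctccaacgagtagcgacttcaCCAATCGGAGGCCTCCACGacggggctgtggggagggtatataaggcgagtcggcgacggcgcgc
Hsp90b1 (chr10:86705623-86705671, minus strand): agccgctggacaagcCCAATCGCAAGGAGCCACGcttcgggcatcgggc
Hsp90b1 (chr10:86705518-86705566, minus strand): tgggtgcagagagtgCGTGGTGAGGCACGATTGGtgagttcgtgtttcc
Pdia6 (chr12:17266476-17266524, plus strand): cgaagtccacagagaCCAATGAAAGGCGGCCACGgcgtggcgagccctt
Calr (chr8:84847060-84847108, minus strand): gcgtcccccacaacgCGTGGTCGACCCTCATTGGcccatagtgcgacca
Canx (chr11:50325785-50325833, minus strand): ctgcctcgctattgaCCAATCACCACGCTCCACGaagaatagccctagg
Dnajc3 (chr14:118937812-118937860, plus strand): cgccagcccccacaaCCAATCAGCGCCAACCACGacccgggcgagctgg
Creld2 (chr15:88819505-88819553, plus strand): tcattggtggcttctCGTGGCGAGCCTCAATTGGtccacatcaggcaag
Syvn1 (chr19:6046517-6046565, plus strand): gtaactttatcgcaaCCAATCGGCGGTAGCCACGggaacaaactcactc
The element stood in 8 of the 22 genes of the group with a promoter in the table (36.4%) and in 20 of all 15614 genes (0.128%). No printed match shared bases with another motif searched. Of these 8 genes Creld2 had the largest fold, 2.27, and peaked at CT17.7, while Hsp90b1, with 2 matches, peaked at CT20.7.

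Heat shock genes were called in 17 of 20 (85.0%), with a median fold of 1.34 and a circular mean peak at CT18.4. Hsp90aa1 was 1.58-fold (1.46 to 1.72; CT20.1), the co-chaperone genes Chordc1 1.67-fold (CT18.4), Stip1 1.49-fold (CT17.6), Fkbp4 1.35-fold and Ahsa2 1.55-fold, and Hspa4l 1.45-fold. Hspa1a, Dnajb1 and Cryab did not pass. The wave of 2 of these 20 differed from the mean of the other 11 tissues, where Hsp90aa1 was 1.4-fold, beside 5.03% of all genes. The heat shock element, GAA, TTC and GAA with 2 bases of any kind between neighbours, on either strand, stood in 2 of 17 promoters of the group (Hspd1 and Hspe1) and in 69 of all genes (0.442%). Proteasome subunits were called in 11 of 19 at a median fold of 1.08, and all 11 peaks lay between CT18 and CT24; Psmd11 was the deepest at 1.28-fold (CT21.4). With the adipocyte mean as covariate 14 of the 20 heat shock and 10 of the 19 proteasome genes were called.

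**Figure D4:**
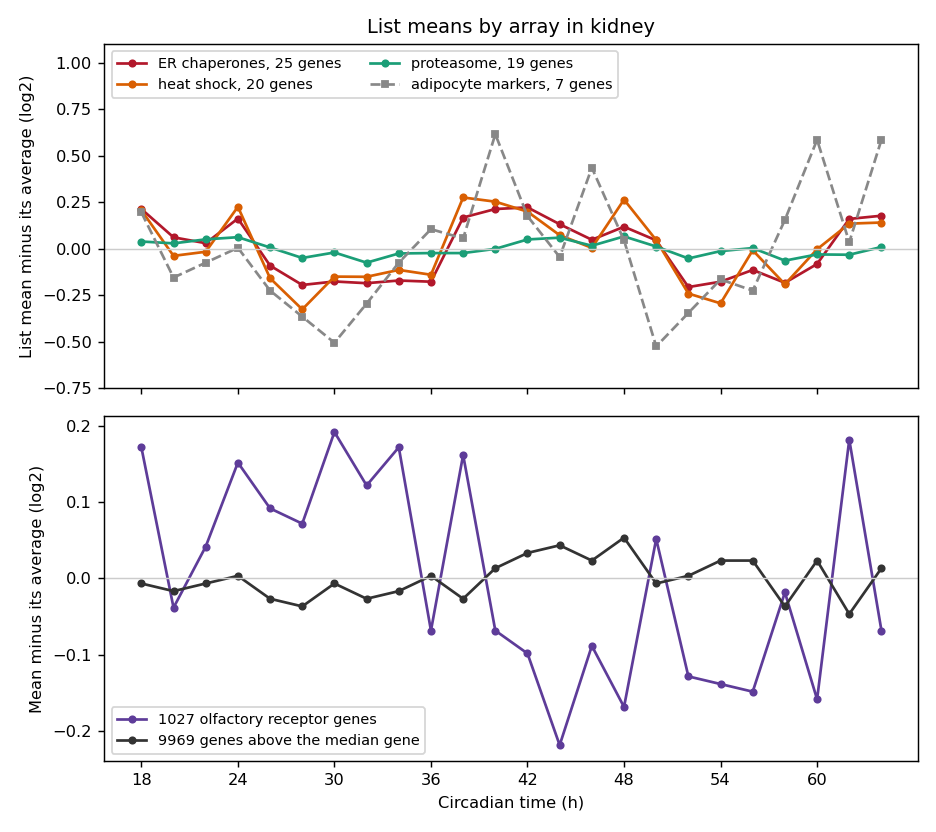
Top, mean log2 intensity of 4 gene lists on each kidney array minus the list's average over the 24 arrays, against circadian time in h (25 endoplasmic reticulum genes, 20 heat shock genes, 19 proteasome genes and 7 adipocyte markers). Bottom, the same for 1027 olfactory receptor genes and for the 9969 genes above the median gene. The chaperone lists are high near CT18, CT40 and CT64. The olfactory mean is higher at CT30 (5.15) than at CT44 (4.74), and high again at CT62 (5.14).

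Most called genes of cholesterol synthesis peaked late in the night, whereas those of fatty acid oxidation had no common hour. Of 17 cholesterol synthesis genes 10 were called, 9 of them with peaks between CT18 and CT24. Msmo1, a sterol oxidase, ran from a log2 intensity of 8.8 at CT56 through 9.43 to 9.95 at CT44, 1.93-fold (1.76 to 2.11; CT21.1, limma adjusted p = 3.11e-11), with Insig1, the brake on SREBP processing, 1.65-fold (CT20.2), Idi1 1.49-fold (CT23.2), Fdps 1.44-fold, Lss 1.33-fold and Fdft1 1.26-fold. Hmgcs1 did not pass in kidney at 1.02-fold. The adipocyte mean as covariate left 10 cholesterol genes called, and 17 and 8 genes of the synthesis and oxidation lists that follow. Of 22 fatty acid synthesis and lipid genes 19 were called (86.4%): Scd2 1.66-fold (CT18.7), Fasn 1.66-fold (CT19.0), Acaca 1.54-fold (CT19.2) and their regulator Srebf1 1.53-fold (CT18.7) peaked within an hour of each other, whereas Dgat2, which makes triglyceride, was 1.31-fold with a peak at CT11.0. Thrsp, 2.11-fold (CT16.8), is also high in fat cells and was 1.35-fold with the adipocyte mean as covariate. Of 23 genes of fatty acid oxidation 10 were called at a median fold of 1.08; Cpt1a, the entry step, was 1.24-fold (CT8.78), its regulator Ppara 1.26-fold (CT9.71) and the carnitine carrier gene Slc25a20 1.32-fold (CT14.1).

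Glucocorticoid responsive genes had the largest median fold of the 35 lists, 1.53, with 14 of 17 called (82.4%). Tsc22d3, also called GILZ, ran from a log2 intensity of 7.82 at CT28 through 8.95 to 9.4 at CT38, 2.3-fold (2.01 to 2.62; CT14.7). Fkbp5, the receptor's co-chaperone, was 1.53-fold (CT14.5), Glul, glutamine synthetase, 1.36-fold (CT13.8), the phosphatase gene Dusp1 1.61-fold (CT10.6) and the metallothionein gene Mt2 1.79-fold (CT6.33). The list was low at CT24 and high at CT60 in its mean, and 13 of the 17 were called with the adipocyte mean as covariate. Corticosterone, which drives these genes and rises before the active phase in mice, was not measured here. Per1 and Tsc22d3 stand in the clock lists as well.

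Transport lists with a bearing on urine composition held shallow waves spread over the day. Of 30 sodium and chloride transport genes 20 were called (66.7%, median fold 1.14); besides Usp2, Tsc22d3, Slc9a3 and Stk39 these included the channel-activating protease gene Prss8 at 1.25-fold (CT10.6) and the potassium-chloride cotransporter gene Slc12a7 at 1.22-fold (CT9.3), and 16 were called with the adipocyte mean as covariate. Of 9 water and urea transport genes 8 were called (88.9%), Aqp4 being the exception, and 4 with that covariate. Of 11 potassium channel genes 7 were called and 3 with that covariate, Kcnj15 1.15-fold (CT8.41) among the 7 and Kcnk5 the deepest at 1.32-fold (CT13.4). Of 15 genes of vasopressin, endothelin and prostaglandin signalling 9 were called, the V1a receptor gene Avpr1a (7.07 at CT34 through 7.94 to 8.5 at CT46) the deepest, with the natriuretic peptide clearance receptor gene Npr3 1.39-fold (CT21.6), endothelin Edn1 1.26-fold (CT19.1) and its receptor gene Ednrb 1.26-fold (CT6.36). Of 12 renin-angiotensin genes 6 were called, none above 1.21-fold, which was Atp6ap2.

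Several of the deeper waves among acid-base, fructose, urate and imino acid genes peaked by day. Car14, a membrane carbonic anhydrase, ran from a log2 intensity of 9.05 at CT22 through 9.7 to 10.18 at CT36, 1.83-fold (1.68 to 1.99; CT10.9, limma adjusted p = 4.02e-11), and the glutamine transporter gene Slc38a3, which feeds ammonia production, was 1.43-fold (CT9.2); in all 9 of 18 acid-base genes were called. Of these 9, 3 peaked between CT6 and CT12 and 4 between CT12 and CT18, Pck1 and Glul among the 4. Another 1 peaked before CT6 and 1 after CT18. The fructose transporter gene Slc2a5 was 1.52-fold (CT9.75), the urate transporter gene Slc2a9 1.43-fold (CT10.5), the ergothioneine transporter gene Slc22a4 1.33-fold (CT9.72) and the imino acid transporter gene Slc6a20a 1.6-fold (CT10.9). The anion transporter gene Slco2b1 peaked later (1.32-fold, CT15.4). Of 25 sugar genes 14 were called, of 29 organic ion transporter genes 13 and of 27 amino acid transporter genes 13, with 8 of the last 13 peaks between CT6 and CT12. The glucose-6-phosphatase gene G6pc was 1.26-fold (CT19.2) and the kinase gene Pdk2 1.27-fold. Of 22 phosphate, calcium and magnesium genes 12 were called, with the phosphate transporter gene Slc20a2 at 1.21-fold (CT5.57).

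Other lists were shallower or less often called. Hypoxia target genes were called in 9 of 15, led by Ndrg1, from 11.99 at CT58 through 12.83 to 13.02 at CT46 (1.73-fold, CT22.1), and P4ha1 (1.45-fold, CT18.9). Cirbp, a cold-induced RNA binding protein known to follow body temperature, ran from 8.43 at CT38 through 8.92 to 9.76 at CT54, 1.7-fold (1.45 to 2.0; CT5.5), while Rbm3 was 1.25-fold with a peak at CT12.7. Alas1, which starts haem synthesis, was 1.71-fold (CT13.3) and the epoxide hydrolase gene Ephx1 1.5-fold (CT11.3). The lists least often called were subunits of the respiratory chain and ATP synthase (4 of 24, 16.7%, median fold 1.04), cytosolic ribosomal proteins (3 of 17, 17.6%, median fold 1.05) and genes that differ between male and female kidneys (2 of 14), each below the 25.8% of all genes; as single arrays were left out, respiratory chain calls ranged from 2 to 7 and ribosome calls from 2 to 6.

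**Figure D5:**
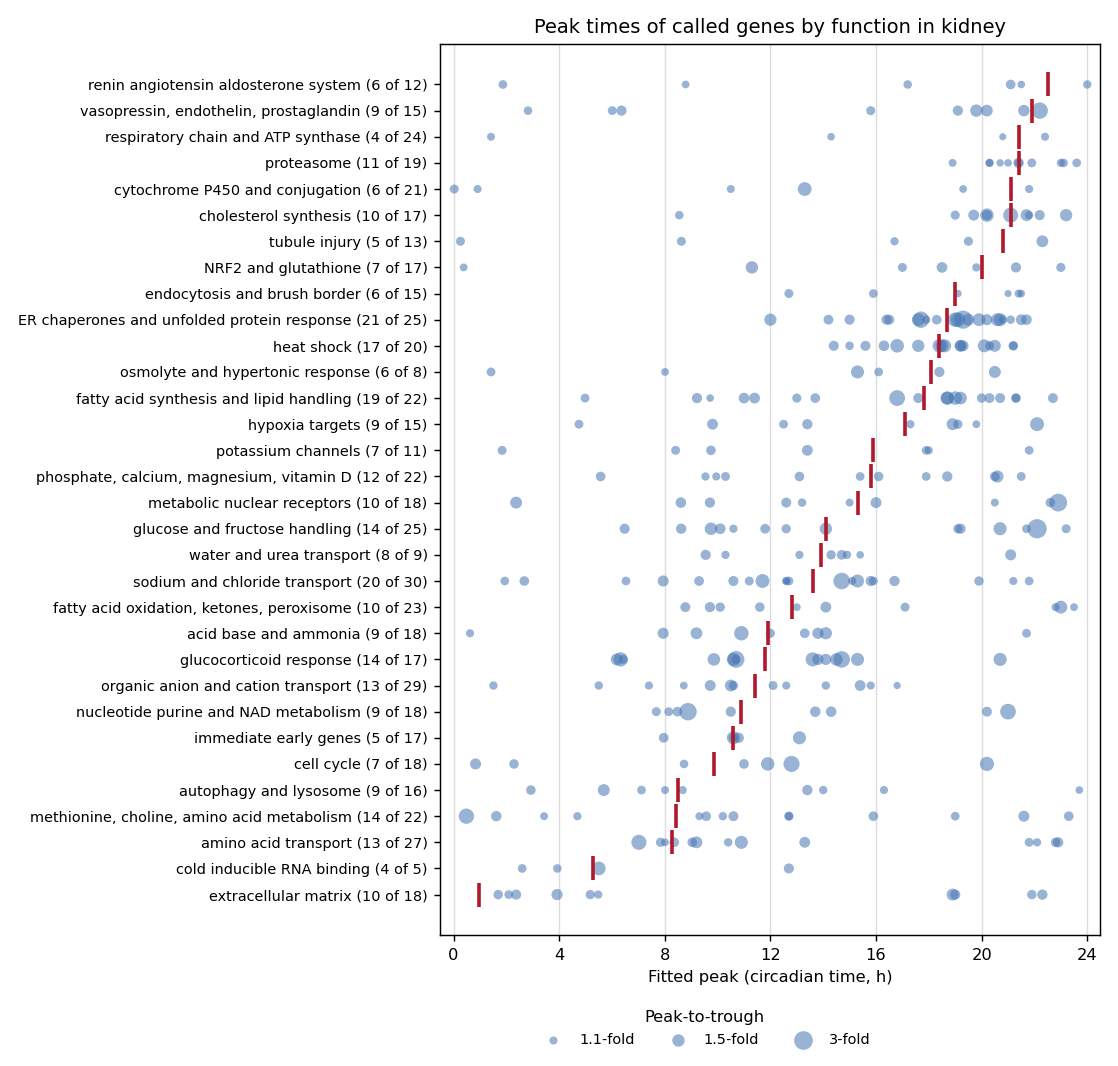
Fitted peak time (circadian time 0 to 24 h) of each called kidney gene by function list, dot area by peak-to-trough fold, with a red bar at the circular mean peak of the called genes and the count called of those measured beside each list. Proteasome peaks all lie between CT18 and CT24 and chaperone and cholesterol genes cluster near CT18 to CT21, while the sodium and potassium lists spread over the day.

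The wave was next compared with the mean wave of the other 11 tissues in 1 limma fit of all 288 arrays, in which the contrast asks whether the cosine and sine terms differ. It passed for 1002 genes (5.03% of those tested), of which 902 also had a called wave in kidney. Ppard had the smallest adjusted p, 2.02e-39, at 2.68-fold in kidney and 1.11-fold in the mean of the others. Slc16a1 (3.25 against 1.23, adjusted p = 1.1e-35), Nat8f5 (3.26 against 1.2, 1.03e-34), Itga6 (2.18 against 1.21, 8.53e-23), Asb9, an adaptor of ubiquitin ligases (1.56 with a peak at CT4.12 against 1.03, 8.51e-20), and Fmnl1, a formin (1.68 with a peak at CT11.3 against 1.05, 5.39e-19), also had deeper waves in kidney. Slc6a19 (1.95 against 1.03, 1.94e-23) had a called wave in no other tissue, and Rhobtb1 (4.61e-29) peaked at CT20.0 in kidney. The contrast compares waves, not levels. The proximal convoluted tubule list that holds Slc6a19 had a mean log2 intensity of 11.62 in kidney and at most 7.43 (liver) elsewhere. Whether low expression elsewhere accounts for the missing waves was not tested. A shallow mean of the others can come from waves of different phase in single tissues: Slc16a1 was called in 10 of the other 11 tissues, Ppard in 1.

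Core clock genes were among those with deeper kidney waves. Arntl was 9.54-fold against 4.88 (adjusted p = 1.46e-09), Dbp 12.1 against 5.85 (8.26e-06), Per2 4.06 against 2.68 (0.00086) and Cry1 2.28 against 1.64 (8.52e-05), while Nr1d1 (9.45 against 6.42, 0.124) and Per1 (2.36 against 2.26, 0.931) did not pass. In all 6 of 13 core clock and 7 of 12 output genes differed, beside 5.03% of all genes. Of the segment genes 24 of 135 differed, Avpr2 (1.42 against 1.02, 2.44e-08) and Slc8a1 (1.46 against 1.11, 1.46e-09) among them. Over all genes, 1223 were called in kidney and in no other tissue, of which 204 differed from the others by this contrast, and 14 were called in all 12 tissues.

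Liver, the other organ of gluconeogenesis, differed in wave from kidney for 3101 genes (15.6% of those tested), 1512 of them called in kidney. Kidney and liver shared 2322 called genes, 45.1% of the kidney's and 43.5% of the liver's 5343, and for 255 of these the peaks lay at least 8 h apart and the waves differed. Chka, choline kinase (1.24-fold in kidney, 6.37-fold in liver, adjusted p = 1.14e-42), Denn2b (1.15 and 4.73, 1.34e-41), Lgalsl (1.29 and 2.98, 1.72e-33) and Tubb2a (1.42 and 5.57, 3.46e-28) had shallower waves in kidney. Tjp3 peaked at CT6.94 in kidney and CT21.8 in liver (1.14 and 2.46, 2.76e-33), Mad2l2 at CT11.2 and CT23.4 (1.2 and 2.23, 5.63e-30), and the histone gene H1f2 at CT2.07 and CT19.3 (1.59 and 2.57, 2.05e-27). Nat8f5 was deep in both, 3.26-fold with a peak at CT14.4 in kidney and 3.77-fold at CT18.5 in liver (1.02e-31). Car14 was high by day in kidney (CT10.9) and at the end of the night in liver (2.27-fold, CT22.8; 2.2e-19).

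Over the 2 days, apart from the wave, few genes had a called drift. A straight line fitted beside the 24 h wave passed for 217 genes that rose (1.09% of those tested) and 375 that fell (1.88%). The median absolute slope of these genes was 0.17 log2 units per 24 h. Of 13767 probe sets with no gene symbol or several, fitted apart from the genes, 1229 passed for such a line. The rises and falls lay in different ranges of brightness: 186 of the 217 rises were above the median gene, and 352 of the 375 falls at or below it. Of 1027 olfactory receptor genes, which have few known roles in kidney and were dim throughout, 237 fell, and of 167 vomeronasal receptor genes 30 fell. The olfactory mean ranged from a log2 intensity of 5.15 at CT30 to 4.74 at CT44, but was again 5.01 at CT50 and 5.14 at CT62. The mean of the brighter genes stayed between 8.85 and 8.95. Genes at or below the median gene had a median slope of -0.003 log2 units per 24 h, with 4675 of 9969 slopes above 0. With either the olfactory mean or the adipocyte mean as covariate no gene passed (limma, 2379 and 2563 genes at an unadjusted p under 0.05). The part of either in the drift was not tested. Median centring of the arrays cut the share of rises among the called genes from 36.7% to 8.01%, and among genes above the median gene alone it was 87.8%.

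The steepest rises among genes above the median gene were small. Wfdc2, a secreted protease inhibitor of epithelia, rose by 0.30 ± 0.064 log2 units per 24 h (SE; limma adjusted p = 0.0175), from 8.22 at CT20 through 8.74 to 9.14 at CT48. Snora23, a small nucleolar RNA, rose by 0.26 ± 0.038 (adjusted p = 0.00377), with its 6 lowest arrays all between CT18 and CT30 and its 6 highest all from CT48 on. The Wnt antagonist gene Sfrp1 rose by 0.22, the glutathione transferase gene Gstp1 by 0.21, Ehd3 by 0.21, Sirt6 by 0.20, and H4c4, Cpn1, Car15 and Nab2 each by 0.19. Of these 10, Sfrp1, Gstp1, Ehd3, H4c4, Cpn1 and Car15 lost the call when 1 array was left out, at adjusted p of up to 0.0947, and all 10 lost it with the adipocyte mean as covariate. Of the 135 segment genes 3 rose (Ehd3, Tmem72 at 0.13 and Kcnj1 at 0.10) and none fell. Of all 9969 genes above the median gene 186 rose and 23 fell, so the segment genes did not stand out.

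Among genes above the median gene, the steepest falls were of a Y-linked gene and microRNA genes; 230 falls over all genes exceeded 0.2 log2 units per 24 h, most of the 375 being of dimmer genes. Srsy, a multicopy gene of the Y chromosome whose copies the probes may not tell apart, fell by 0.88 ± 0.14 log2 units per 24 h (limma adjusted p = 0.00603), from 8.69 at CT24 through 7.35 to 6.33 at CT60, and the microRNA genes Mir680-1 and Mir680-2 fell by 0.51 and 0.42. Vmn1r19 fell by 0.39, Anp32-ps by 0.23, Nyx by 0.19, Olfr558 and Zfp825 by 0.16, Lemd3 by 0.12 and Sinhcaf by 0.11. Srsy and the 2 Mir680 genes kept the call without any 1 array and the other 7 lost it, and all 10 lost it with the adipocyte mean as covariate. The count of trends moved widely with single arrays: 105 without the CT18 array, 159 without CT48, 288 without CT54 and 1527 without CT62.

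The wave itself did not change detectably from the first day to the second. No gene passed the test of the difference between the days (0% of those tested; limma, 609 genes at an unadjusted p under 0.05), the median fold of the called genes was 1.16 on each day, and 2532 of them had the larger fold on day 1 and 2615 on day 2. Dbp was 12.9-fold on day 1 and 11.6-fold on day 2, Arntl 9.9-fold and 9.4-fold, and Slc6a19 1.85-fold and 2.05-fold. A 12 h wave beside the 24 h wave passed for 1 gene (0.00502% of those tested), Cyp1b1, a cytochrome of steroid and xenobiotic oxidation, at 1.26-fold with a first peak at CT8.95 (limma adjusted p = 0.0117), with 1258 genes at an unadjusted p under 0.05. On ranks no gene passed (965 unadjusted).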

How the data were processed

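Total RNA from kidney was hybridised to Affymetrix MoGene arrays, 1 array per time point. The authors' deposited values are intensity on a linear scale, made with GCRMA in Affymetrix Expression Console, per the submitters' processing notes. GCRMA takes out background and normalizes the arrays, so levels are relative and dim values are compressed. Kidney array medians still ranged from 97.5 to 105.2, so the deposited values are not on 1 distribution. These values were taken to log2 here with no pseudocount, since none was 0 or below (lowest 6.9). The design had foreseen log2 values, and the tests did not change. Of 35556 probe sets 21789 had 1 gene symbol in the platform annotation, 1621 had several and 12146 none; the brightest probe set stood for each of 19938 genes (999 genes had several). The precision is limited by the number of arrays.

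Models were fitted with limma 3.58.1 in R 4.3.3 (eBayes with trend) over all genes, with Benjamini-Hochberg adjustment and a threshold of 0.05: the 24 h pair by a moderated F test, a line beside it, the difference of the pair between days, a 12 h pair beside 24 h and 8 h pairs, and, in 1 fit of all 288 arrays, kidney against the mean of the other 11 tissues and against liver. Fold is 2 to the power of the fitted log2 peak-to-trough distance, so noise alone puts it above 1; its 95% interval and the peak's SE come from the delta method. Scripts were tested on simulated data.

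The genes described and the 61 lists (742 of 810 genes measured) were chosen with earlier results of these data known. Named are all clock and segment genes, the 20 largest folds outside the clock lists among called genes above the median gene whose day peaks agreed within 4 h, up to 6 called genes with the smallest adjusted p of each function list, the 10 largest trends each way among genes above the median gene, and the 8 smallest adjusted p of each tissue contrast among genes called in kidney; others stand only where a sentence needs them. Adipocyte and olfactory receptor covariates were added as alternatives after the data were seen. Promoters are from RefSeq (GRCm38.p6), matched by symbol for 15614 genes.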

Additional observations from a re-analysis of the deposited data

Results flagged for a closer look

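A difference of the 24 h wave between kidney and the mean of the other 11 tissues passed the test for 1002 genes. The 8 with the smallest adjusted p among genes called in kidney were Ppard (2.02e-39), Slc16a1 (1.1e-35), Nat8f5 (1.03e-34), Rhobtb1 (4.61e-29), Slc6a19 (1.94e-23), Itga6 (8.53e-23), Asb9 (8.51e-20) and Fmnl1 (5.39e-19). All had a larger fold in kidney than in the mean wave of the others, which waves of different phase make shallower.

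The difference between kidney and liver passed for 3101 genes. The 8 with the smallest adjusted p among genes called in kidney were Chka (1.14e-42), Denn2b (1.34e-41), Lgalsl (1.72e-33), Tjp3 (2.76e-33), Nat8f5 (1.02e-31), Mad2l2 (5.63e-30), Tubb2a (3.46e-28) and H1f2 (2.05e-27); all had the larger fold in liver.

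Of 13767 probe sets not used for genes, because they have no symbol or several, 519 had a called 24 h wave in kidney. Dimmer probe sets of a gene with several are not among them. Among the 19938 genes 5147 had such a wave (25.8%).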

How the results depend on the processing

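The count of genes with a 24 h wave stayed within 1.5 times of 5147 under every setting that used both days and all 24 arrays (4454 to 5623 genes) and without any 1 array (4497 to 5493), and was 2136 from the first 24 h alone and 1561 from the second; 4864 of the 5147 were also called on ranks. The trend was less stable. Against 592 genes it gave 394 on ranks, 115 among genes above the median gene, 288 without the CT54 array, 319 with the pancreas mean as covariate, 1460 as a day difference at the same circadian hour, 180 with no wave, 1045 with a 12 h pair, and 0 with either the adipocyte mean (limma; 2563 at an unadjusted p under 0.05) or the olfactory mean (2379) as covariate. Leaving out 1 array gave 105 (without CT18) to 1527 (without CT62); CT22 (335), CT26 (352), CT30 (263), CT32 (327), CT34 (341), CT38 (378), CT44 (334), CT46 (286), CT48 (159), CT52 (294), CT54 (288), CT56 (332), CT60 (373) and CT50 (964) also moved it by over 1.5 times. The 217 rises became 101 among genes above the median gene, 56 with median centring, 102 without CT54, 114 with the pancreas mean, 609 as a day difference, 92 with no wave, 384 with a 12 h pair, 0 with either covariate, and 50 to 580 without 1 array. The 375 falls became 246 on ranks, 245 with a robust prior, 14 among genes above the median gene, 643 with median centring, 186 without CT54, 205 with the pancreas mean, 851 as a day difference, 88 with no wave, 661 with a 12 h pair, 0 with either covariate, and 55 to 947 without 1 array. The 12 h count was 0 on ranks (965 unadjusted). Weighting arrays by tissue raised the count against the other 11 tissues from 1002 to 2678, and that against liver was 2984 to 4019. The cause of these changes was not tested. Rises were 36.7% of trend calls, 8.01% with median centring, 51.1% with no wave and 87.8% among genes above the median gene. The day difference pairs the arrays of the same circadian hour; no other pairing was fitted.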

Other observations

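Extracellular matrix genes were called in 10 of 18 (55.6%, beside 25.8% of all genes and 41.9% of genes above the median gene). Their circular mean peak was at CT0.962, later than the chaperone groups. Collagen IV chains of the mature glomerular basement membrane had waves that were near flat in the mean of the other 11 tissues: Col4a3 was 1.27-fold (CT22.3; other tissues 1.01, adjusted p of the difference 9.35e-06) and Col4a4 1.19-fold (CT21.9; 1.0, 0.0253). Col4a1, a chain common to most basement membranes, was 1.2-fold (CT1.69) in kidney and 1.18-fold in the others (0.944). The membrane protease gene Mmp14 was 1.36-fold with a peak at CT3.92.

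Of 16 autophagy and lysosome genes 9 were called, with Wipi1 1.44-fold (CT5.69), Bnip3 1.27-fold (CT13.4) and Gabarapl1 1.2-fold (CT2.93). Of 17 immediate early genes 5 were called, all with peaks from CT7.96 to CT13.1, among them Ier3 (1.6-fold) and Zfp36 (1.27-fold), while Fos and Egr1 did not pass. Of 18 cell cycle genes 7 were called; Myc was 1.79-fold (CT20.2), the polo-like kinase gene Plk3 1.66-fold (CT11.9) and Ccnd1 1.21-fold (CT11.0). Among nuclear receptors, the thyroid hormone receptor gene Thra was 1.44-fold (CT2.37) and Esr1 1.24-fold (CT12.6); Pparg, a fat-cell regulator, was 1.33-fold (CT16.0) and 1.04-fold with the adipocyte mean as covariate (adjusted p = 0.834). Of 13 tubule injury genes 5 were called and of 13 interferon and immune genes 3, none of which was called without the CT32 array. The shares called were 56.2% for autophagy, 38.9% for cell cycle, 38.5% for tubule injury, 29.4% for immediate early and 23.1% for immune genes. Beside 25.8% of all genes and 41.9% of genes above the median gene, the last 4 lists did not stand out.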
